A study of Homo sapiens with 6 samples.

Results

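IER2, IER3, IER5 and IER5L carry the name immediate early response, and their levels were compared between MDA-MB-231 cells given an adenovirus that codes for ADAR1 p110, the shorter and mainly nuclear product of an adenosine-to-inosine RNA editing gene, and cells given an eGFP control adenovirus. The 4 genes were chosen by gene symbol from the 60461 genes of the deposited count table, each symbol gave 1 row, and all 4 were among the 18899 genes that passed the filter on low counts. They were picked with results of this comparison known, so their differences are given as a description and without a test. MDA-MB-231 is an established human line from a triple-negative breast tumour, with mesenchymal character. The ADAR1 p110 group held 3 libraries from cells given particles that carry the ADAR1 p110 coding sequence, and the GFP group held 3 libraries from cells given the eGFP particles. Both groups received virus at a multiplicity of infection of 200, had the medium changed after 16 h and gave RNA after 48 h, so both carry an adenovirus, and cells without virus were not analysed here. The labels call the libraries biological replicates without saying how the cultures were kept apart, so the errors below measure the spread between these libraries.

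Immediate early genes are transcribed within minutes of a growth factor, cytokine or stress signal, from promoters whose activating factors are already in the cell, and their messages are usually short-lived. IER2, IER5 and IER5L form a small protein family with a related N-terminal part, and IER3 shares the name but not that sequence. IER3, also called IEX-1, is a short protein that modulates cell survival and is a known transcriptional target of NF-kappaB and p53. IER2 is a nuclear growth factor response protein. IER5 binds protein phosphatase PP2A and activates the heat shock factor HSF1, and IER5L is its closest relative and less studied.

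Promoter sequences, which the choice of members did not use, are shown for the members that had an entry. The RefSeq promoter table, on build GRCh38.p14, gave an entry for 3 of the 4 members, each of 300 bases running from 250 before to 50 after the start site. They are printed in the gene's own direction, with capitals marking matches to GAANNTTC (the core of the heat shock element), CCAAT (the CCAAT box, read as ATTGG on the other strand) and TATAA. IER2 holds none of the 3 and so has no capitals.
IER5, chr1:181088450-181088749, plus strand: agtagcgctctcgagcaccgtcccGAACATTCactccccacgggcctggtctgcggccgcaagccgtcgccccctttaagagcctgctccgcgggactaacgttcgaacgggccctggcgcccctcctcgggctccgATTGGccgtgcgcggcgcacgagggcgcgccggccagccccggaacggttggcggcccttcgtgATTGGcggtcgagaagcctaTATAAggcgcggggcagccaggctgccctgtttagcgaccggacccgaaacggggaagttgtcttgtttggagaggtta
IER5L, chr9:129178212-129178511, minus strand: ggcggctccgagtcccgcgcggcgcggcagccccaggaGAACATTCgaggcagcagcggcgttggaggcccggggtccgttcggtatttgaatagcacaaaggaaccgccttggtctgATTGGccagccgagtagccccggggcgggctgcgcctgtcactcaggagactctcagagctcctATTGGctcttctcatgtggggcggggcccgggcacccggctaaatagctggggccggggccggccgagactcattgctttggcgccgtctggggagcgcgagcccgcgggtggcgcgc
IER2, chr19:13150161-13150460, plus strand: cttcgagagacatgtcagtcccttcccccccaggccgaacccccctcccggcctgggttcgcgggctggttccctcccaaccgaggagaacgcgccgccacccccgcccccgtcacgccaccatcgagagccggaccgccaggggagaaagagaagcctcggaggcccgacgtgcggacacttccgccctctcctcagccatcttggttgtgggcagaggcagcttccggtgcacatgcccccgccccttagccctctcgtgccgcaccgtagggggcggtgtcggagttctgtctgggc
IER3 had no entry.

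IER5 and IER5L shared an octamer and a pair of CCAAT boxes, in the same order. The octamer GAACATTC lay at bases -226 to -219 of IER5 and -212 to -205 of IER5L, counted back from the start site. Each then held 2 CCAAT boxes, both on the opposite strand, starting at -113 and -49 in IER5 and at -132 and -68 in IER5L, so that the 2 boxes started 64 bases apart in both genes. Among all 35116 promoters of the table, 0.834% held the octamer, 10.8% held at least 2 CCAAT boxes and 0.165% held 2 boxes with that spacing. The octamer and that spacing occurred together in 3 entries, which were IER5, IER5L and LOC124904465, an entry for the opposite strand of nearly the same window as IER5. The octamer, the CCAAT box and the spacing were chosen after the sequences were seen, so these shares describe the table and test nothing. The longest run of bases that any pair of the 3 promoters shared was 9.

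IER2 held neither a CCAAT box nor GAANNTTC, which occurred in 34.6% and 6.77% of all promoters. It held 4 matches to the GC box GGGCGG, present in 45.0% of promoters, and IER5L held 2. TATAA was found in IER5 alone of the 3, at -29, and in 20.4% of all promoters. One match to TGACG, part of the cyclic AMP response element, lay in IER2, against 24.6% of promoters. CCGGAA, an ETS core that overlaps none of the motifs named, was found once each in IER2 and IER5 and in 17.2% of promoters. No match was found in the 3 promoters for the CArG box bound by serum response factor, an NF-kappaB site or the TATA box TATAAA, which occurred in 1.29%, 7.73% and 11.5% of promoters. The same held for the AP-1 site TGACTCA (4.95% of promoters), the full cyclic AMP response element TGACGTCA (1.85%) and the E-box CACGTG (7.26%). All motifs were searched on both strands, and TGACG also lies within TGACGTCA as TATAA does within TATAAA. The absence of a match says only that these letters are not in this window. The 3 promoters had 67.3% to 69.7% G and C, against a median of 58.7%.

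**Figure D1:**
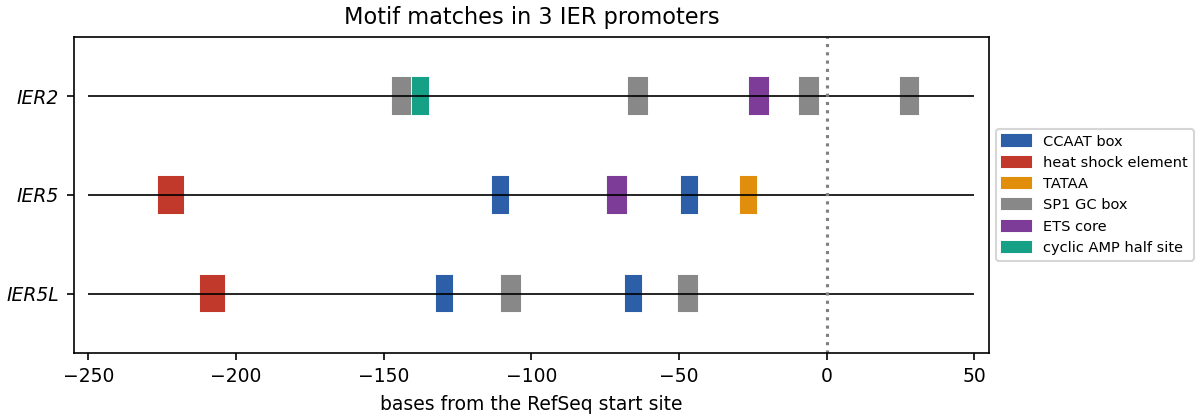
Positions of motif matches in the RefSeq promoters of IER2, IER5 and IER5L, in bases from the start site (dotted line), from 250 before to 50 after it. IER5 and IER5L each hold a GAANNTTC match (red) followed by 2 CCAAT boxes (blue) that start 64 bases apart, and IER2 holds neither.

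The 4 members have few introns. In the GENCODE annotation lifted to GRCh37, the main transcripts of IER5 and IER5L had 1 exon and those of IER2 and IER3 had 2, and the coding sequence of IER2 lay in 1 of its exons. The median over 13558 tested protein-coding genes was 9 exons, and 7.17% of them had at most 2. The transcripts of IER5L and IER2 had 65.0% and 63.0% G and C, IER3 58.1% and IER5 49.8%, against a median of 48.4%.

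The 3′ untranslated regions set IER3 apart from the others in 1 respect. The pentamer ATTTA, the core of AU-rich elements that mark short-lived messages, occurred 6 times in the 737 bases of IER3, or 8.14 per kb. Only 1.95% of tested protein-coding genes had a higher density, and the median was 1.69 per kb. IER5 had 10 in 3014 bases (3.32 per kb), IER5L 3 in 1286 bases (2.33 per kb) and IER2 0 in 1053 bases.

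In the series as a whole, library totals ran from 72741235 to 99589278 counts. A count of 0 allows up to 3 counts, or 0.0301 to 0.0412 CPM (counts per 1000000 of library size, scaled by the TMM method), which covers counting error only. The overexpressed gene was higher as labelled, with ADAR at 1006 ± 13.2 CPM in ADAR1 p110 libraries and 267 ± 8.67 CPM in GFP libraries (SD, n = 3 each). ADAR1 p110 replicate 1 and GFP replicate 2 lay apart from the other 4 libraries on the second principal component, at 26.2 and 24.1 against -18.2 to -7.49, so member values are also given without them. The mesenchymal markers VIM, CD44, AXL and CAV1 were abundant, at 346 to 2320 CPM. The keratin gene KRT18 and EGFR, listed with them as present in this line, stood at 618 to 830 CPM and 204 to 278 CPM. The hormone receptor genes ESR1 and PGR reached at most 6 counts in a library. FOXA1 was also near 0, but the luminal keratin KRT19 stood at 366 to 467 CPM and GATA3 at 3.30 to 4.20 CPM. The summed level of 4 endothelial markers was 7.54 to 8.06 CPM in ADAR1 p110 libraries and 10.1 to 11.05 CPM in GFP libraries, nearly all of it KDR, while CDH5 stayed at or under 3 counts. Sums of 5 leukocyte markers were 3.09 to 3.63 CPM in ADAR1 p110 libraries and 3.56 to 4.64 CPM in GFP libraries. Most of this was CD14, at 2.61 to 4.18 CPM, while CD3E was at 0. Those of 5 fibroblast markers were 30.1 to 33.4 CPM in ADAR1 p110 libraries and 31.2 to 33.9 CPM in GFP libraries. Most of this was COL1A1, at 9.71 to 14.2 CPM, and COL1A2, at 14.3 to 18.1 CPM, while DCN was at or under 5 counts. The part of these small sums in the results was not tested.

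IER3 was the only member with a lower level in the ADAR1 p110 libraries, and the other 3 were higher there. IER3 stood at 497 ± 31.3 CPM in ADAR1 p110 libraries and 961 ± 20.2 CPM in GFP libraries (SD, n = 3 each), a 1.93-fold lower level. IER5L was 1.42-fold higher in ADAR1 p110 libraries, IER2 1.19-fold and IER5 1.18-fold. For all 4 members the ADAR1 p110 libraries lay entirely above or entirely below the GFP libraries, as they did for 24.0% of all tested genes. In bulk RNA, fewer cells that carry a message and less of it per cell cannot be told apart.

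**Figure D2:**
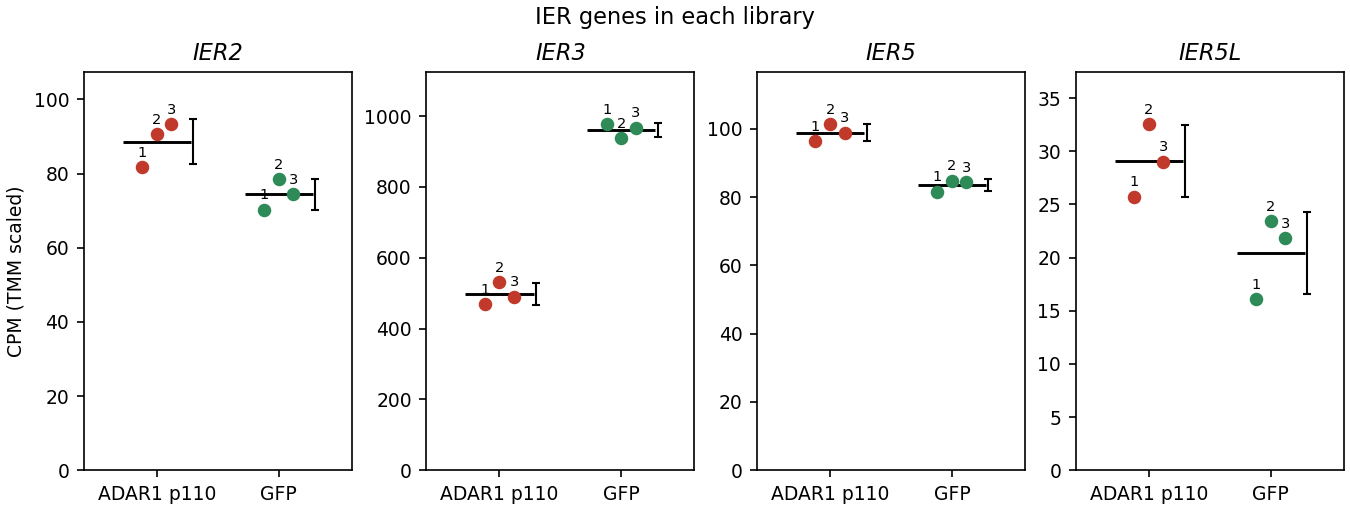
CPM of each member in every library, with ADAR1 p110 libraries in red left of GFP libraries in green, replicate numbers beside the points, the group mean as a bar and the SD as a bracket (n = 3 each). IER3 lies at 469 to 531 CPM in ADAR1 p110 libraries and 938 to 977 CPM in GFP libraries, and the other 3 members lie higher in ADAR1 p110 libraries by a smaller margin.

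IER3 (ENSG00000137331.11_2, hg19 chromosome 6, 30710976 to 30712331, minus strand) lies in the major histocompatibility complex region. It had 469, 531 and 490 CPM in ADAR1 p110 replicates 1, 2 and 3, from 35654, 52300 and 37894 counts. In GFP replicates 1, 2 and 3 it had 977, 938 and 967 CPM, from 84791, 68062 and 95133 counts. The highest ADAR1 p110 library thus lay well below the lowest GFP library. As ADAR1 p110 over GFP, the log2 fold change was -0.95 (SE 0.056), and 394 of 18899 tested genes had a larger change in either direction. It stayed between -0.998 and -0.91 in all 15 fits, and was -0.93 without the 2 libraries that lay apart.

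IER5 (ENSG00000162783.10_2, hg19 chromosome 1, 181057848 to 181062035, plus strand) had the smallest spread of the 4. Its levels were 96.3, 101 and 98.9 CPM in ADAR1 p110 replicates 1, 2 and 3, and 81.6, 84.8 and 84.4 CPM in the GFP replicates. The lowest ADAR1 p110 library was above the highest GFP library by a margin wider than the range within either group. The log2 fold change was 0.24 (SE 0.049). The coefficient of variation was 2.54% in ADAR1 p110 libraries and 2.07% in GFP libraries, against medians of 5.24% and 4.31% over 9471 tested genes with at least 10 CPM in GFP libraries.

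IER5L (ENSG00000188483.7_2, hg19 chromosome 9, 131937831 to 131940541, minus strand) was the least abundant and most variable member. It had 25.7, 32.6 and 29.0 CPM in ADAR1 p110 replicates 1, 2 and 3, from 1955, 3208 and 2244 counts. The GFP replicates had 16.1, 23.4 and 21.8 CPM, from 1398, 1699 and 2149 counts. GFP replicate 1 was low, and ADAR1 p110 replicate 1 lay close to GFP replicate 2, so the gap between the groups was narrow. The log2 fold change was 0.51 (SE 0.128), with coefficients of variation of 11.7% in ADAR1 p110 libraries and 18.8% in GFP libraries. It was 0.37 without GFP replicate 1 and 0.70 without the 2 libraries that lay apart.

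IER2 (ENSG00000160888.6_2, hg19 chromosome 19, 13261229 to 13265722, plus strand) was near IER5 in CPM, with a wider spread. It had 81.7, 90.6 and 93.3 CPM in ADAR1 p110 replicates 1, 2 and 3, and 70.2, 78.5 and 74.4 CPM in the GFP replicates. ADAR1 p110 replicate 1 was only slightly above GFP replicate 2, and these are the 2 libraries that lay apart. The log2 fold change was 0.25 (SE 0.065), and 0.35 without those 2 libraries.

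The fit across all genes used edgeR's quasi-likelihood test and called a gene at a Benjamini-Hochberg adjusted p under 0.05. It called 3 of the 4 members, against 4.91% of all tested genes. IER3 was in the lower direction, which took 2.96% of tested genes, and IER5 and IER5L in the higher direction, which took 1.95%. Nothing is read from these counts, since the comparison was known when the members were picked. With library size alone as the scaling, the calls over all genes were 510 higher and 479 lower, against 368 higher and 559 lower with TMM. The other fits reuse the same libraries, so the calls that follow describe the threshold and are no test of the members either. IER3 was called in 15 of 15 fits, IER5L in 11, IER5 in 10 and IER2 in 6. IER5 and IER5L were not called when ADAR1 p110 replicate 2 or 3 or GFP replicate 1 or 3 was left out. The log2 fold changes were then 0.23, 0.24, 0.23 and 0.25 for IER5 and 0.42, 0.52, 0.37 and 0.56 for IER5L. In these fits the calls over all genes also dropped, to 146, 112, 100 and 147 higher. IER2 was called without ADAR1 p110 replicate 1, at 0.31, without the 2 libraries that lay apart, with DESeq2, with limma-voom, with library size alone and with no low-count filter.

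**Figure D3:**
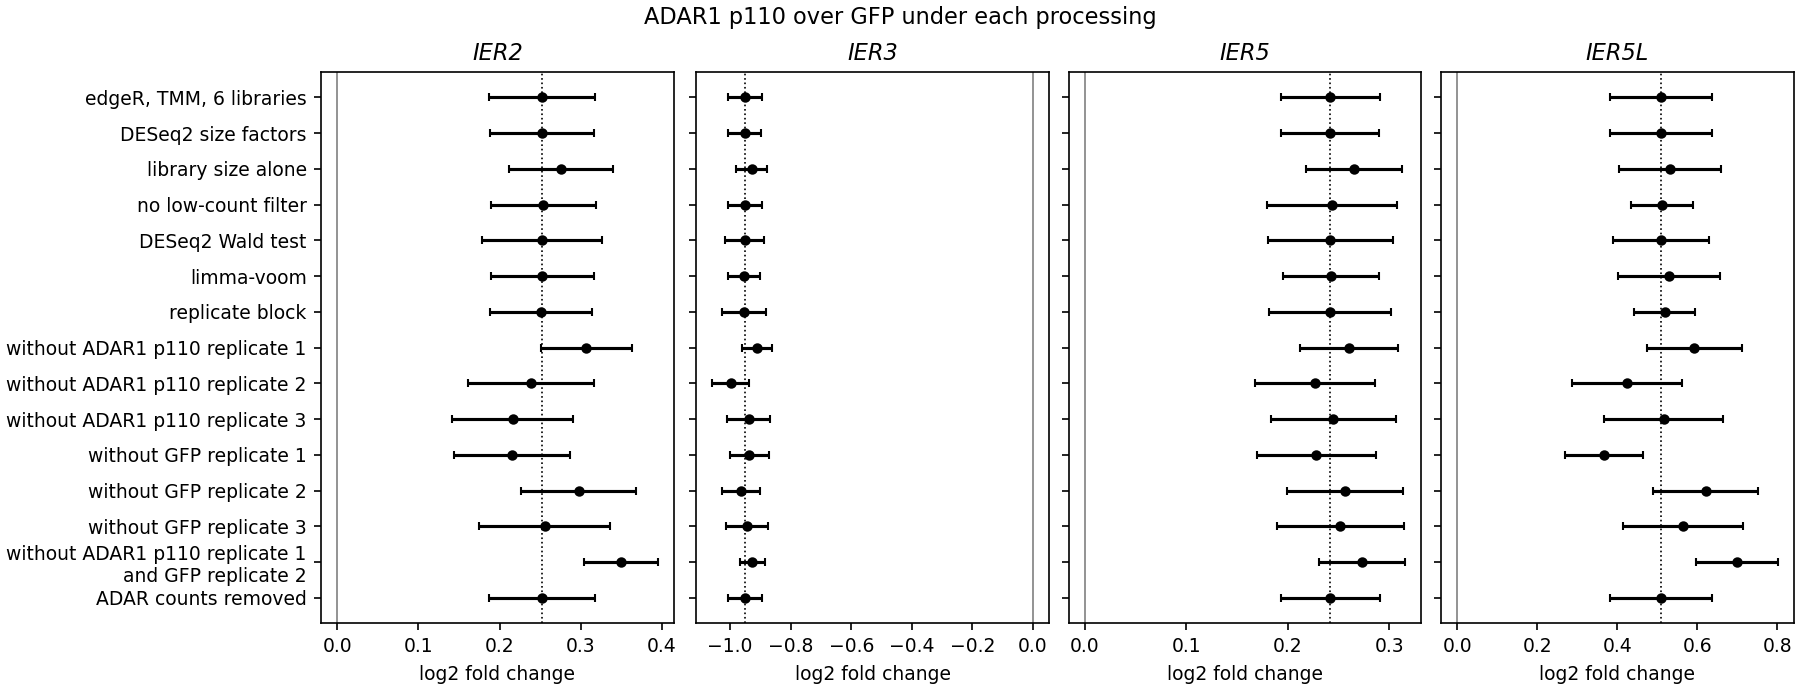
Difference between ADAR1 p110 and GFP libraries as a log2 fold change (horizontal axes, scaled separately) for each member under 15 fits (rows), with the SE as a bar, 0 as a grey line and the first row's value dotted. IER3 stays between -0.998 and -0.91, and the other 3 members stay above 0 throughout, with the widest range for IER5L, from 0.37 to 0.70.

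Levels of different genes were compared as CPM per kb of the deposited gene length. For IER2 that length was 3072 bases, against 2110 in its main transcript, and for IER3 1356 against 1237. Those of IER5 (4188 against 4201) and IER5L (2711 against 2710) differed little. The levels of IER2 and IER3, and ratios with them, thus depend on the length used. The order was the same in both groups. IER3 came first with 366 ± 23.1 CPM per kb in ADAR1 p110 libraries and 708 ± 14.9 CPM per kb in GFP libraries. IER2 followed with 28.8 ± 1.98 CPM per kb in ADAR1 p110 libraries and 24.2 ± 1.35 CPM per kb in GFP libraries. IER5 had 23.6 ± 0.600 CPM per kb in ADAR1 p110 libraries and 20.0 ± 0.412 CPM per kb in GFP libraries. IER5L came last with 10.7 ± 1.26 CPM per kb in ADAR1 p110 libraries and 7.55 ± 1.42 CPM per kb in GFP libraries (SD, n = 3 each). No neighbours in that order overlapped within a group. IER2 and IER5 were the closest, at 26.6 to 30.4 against 23.0 to 24.2 CPM per kb in ADAR1 p110 libraries and 22.9 to 25.5 against 19.5 to 20.2 CPM per kb in GFP libraries.

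Among 18899 tested genes ranked by level per length, IER3 stood at place 55 in ADAR1 p110 libraries and place 20 in GFP libraries. In ADAR1 p110 libraries IER2, IER5 and IER5L stood at places 1606, 2002 and 4393, and in GFP libraries at 1978, 2452 and 5690. IER3 alone made up 84.8% to 85.6% of the summed level per length of the 4 members in ADAR1 p110 libraries and 92.7% to 93.7% in GFP libraries. Ratios taken within a library do not depend on the scaling, though they do depend on the gene lengths used. The level of IER3 was 11.9 to 13.3 times that of IER2 in ADAR1 p110 libraries and 27.1 to 31.5 times in GFP libraries. The ratio of IER2 to IER5, by contrast, was 1.16 to 1.29 in ADAR1 p110 libraries and 1.17 to 1.26 in GFP libraries, so the ranges overlapped. The ratio of IER5 to IER5L was 2.02 to 2.42 in ADAR1 p110 libraries and 2.34 to 3.28 in GFP libraries, and these ranges overlapped too. The ratio of IER2 to IER5L was 2.46 to 2.84 in ADAR1 p110 libraries and 2.96 to 3.85 in GFP libraries, and these ranges did not overlap. Together the 4 members took 0.0685% to 0.0753% of all counts in ADAR1 p110 libraries and 0.112% to 0.113% in GFP libraries. That lower total came from IER3. The sum of IER2, IER5 and IER5L was higher, at 204 to 225 CPM in ADAR1 p110 libraries and 168 to 187 CPM in GFP libraries.

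**Figure D4:**
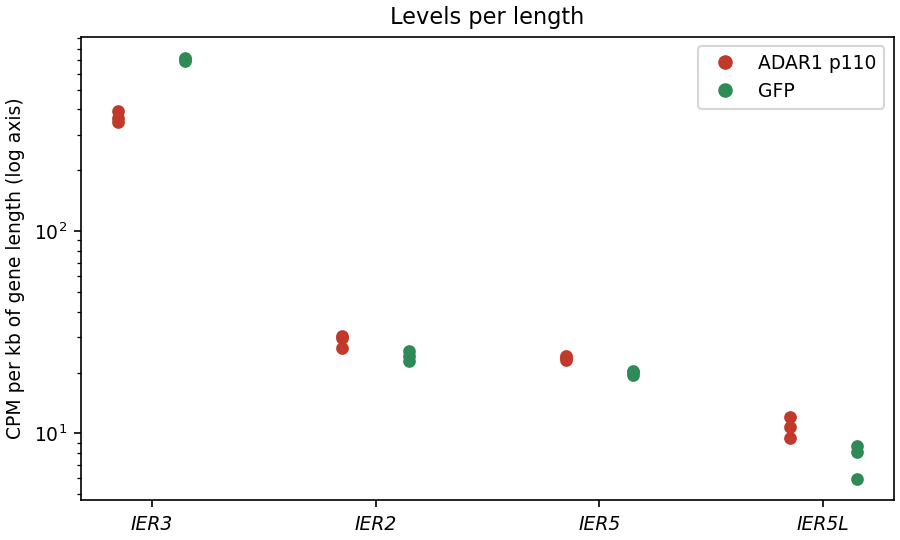
Level of each member as CPM per kb of gene length (log axis), with 1 point a library, ADAR1 p110 in red left of GFP in green. IER3 lies at 346 to 391 CPM per kb in ADAR1 p110 libraries and 692 to 721 CPM per kb in GFP libraries. By the deposited lengths this is more than 10 times above the other members in both groups.

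The genes whose pattern over the 6 libraries was most like each member were found by the Euclidean distance between log2 CPM profiles centred on their means, among 10850 genes whose mean reached 5 CPM in either group. They were picked on the same values and are given without a test. For IER3 the nearest was CDKN1A, the p21 inhibitor of cyclin-dependent kinases, at a distance of 0.052 against a median of 1.19 over all genes compared. CDKN1A had 82.3 ± 4.92 CPM in ADAR1 p110 libraries and 159 ± 6.64 CPM in GFP libraries, a log2 fold change of -0.95. SDC4, the heparan sulfate proteoglycan syndecan-4, followed with 195 ± 9.97 CPM in ADAR1 p110 libraries and 380 ± 2.26 CPM in GFP libraries (-0.96). STAT5A, a transcription factor of cytokine signalling, had 11.9 ± 0.825 CPM in ADAR1 p110 libraries and 23.7 ± 0.844 CPM in GFP libraries (-0.99).

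For IER5 the nearest genes were DALRD3, the thioredoxin-related TMX4 and KLF4, a zinc finger transcription factor that is itself an immediate early gene. KLF4 lay at a distance of 0.055, with 60.5 ± 1.94 CPM in ADAR1 p110 libraries and 50.7 ± 1.196 CPM in GFP libraries (log2 fold change 0.25). For IER5L they were the histone variant gene H2AFX, SCAND1 and the AP-1 subunit gene JUND, the last at a distance of 0.156 with 40.6 ± 4.97 CPM in ADAR1 p110 libraries and 29.8 ± 4.46 CPM in GFP libraries (0.45). JUND and IER5L shared their low libraries, which were replicate 1 in each group. For IER2 they were ZBTB3, D2HGDH and MFSD3, at distances of 0.049 to 0.075. Among the members themselves IER2 and IER5 were the closest pair, at 0.133, and IER5 ranked 54 among the genes nearest to IER2. IER3 lay 1.47 to 1.86 from the other 3.

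The genes around the 4 loci were tested as non-members, with hg19 positions from the deposited table. Of 25 tested genes within 100 kb of a member, 1 rose and 2 fell. IER2 starts 32 bases from the start of STX10, a syntaxin gene of vesicle fusion that runs the other way. STX10 had 57.6 ± 3.77 CPM in ADAR1 p110 libraries and 55.9 ± 3.05 CPM in GFP libraries (edgeR adjusted p = 0.788, log2 fold change 0.04), and its groups overlapped. The edgeR adjusted p of the 7 tested genes around IER2 was at least 0.285.

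Around IER3, 13 genes were tested. FLOT1, a lipid raft gene on the same strand, starts 466 bases below IER3 in coordinates, beyond the end of IER3. It rose to 155 ± 9.14 CPM in ADAR1 p110 libraries, against 127 ± 5.31 CPM in GFP libraries (log2 fold change 0.28, SE 0.058, edgeR adjusted p = 0.0192). Removal of 1 library at a time ended that call in 5 of 6 cases, with adjusted p between 0.0654 and 0.0983, the exception being ADAR1 p110 replicate 1. PPP1R18, a phosphatase subunit gene 55.3 kb away chosen on its values, fell, with a log2 fold change of -0.24 (edgeR adjusted p = 0.0376). That call was lost with library size alone, with a replicate block, and without ADAR1 p110 replicate 2 or 3 or GFP replicate 1 or 3. HCG20, the nearest tested gene above IER3, stood at 0.212 CPM in ADAR1 p110 libraries and 0.423 CPM in GFP libraries and was not called (adjusted p = 0.181). TUBB, the neighbour highest in CPM at 3034 CPM in GFP libraries also chosen on its values, had a log2 fold change of 0.01.

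MR1, which encodes a protein that presents vitamin B metabolites, lies 26.8 kb below IER5 in coordinates and fell to 10.7 ± 0.820 CPM in ADAR1 p110 libraries, against 14.98 ± 0.578 CPM in GFP libraries (log2 fold change -0.48, SE 0.077, edgeR adjusted p = 0.00451). It was called in 15 of 15 fits. GLUL, the nearest tested gene above IER5 and outside the 100 kb window, had a log2 fold change of 0.10 and was not called. Near IER5L, PTPA, the activator of PP2A, lay 26.6 kb away with 226 ± 8.30 CPM in ADAR1 p110 libraries and 219 ± 8.40 CPM in GFP libraries (0.04, edgeR adjusted p = 0.735). It had the smallest adjusted p of the 3 tested genes around IER5L. C9orf106, RPL12P42 and the antisense gene AL662797.2, each under 0.5 CPM, were not called either.

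If counting ignored strand, reads where an antisense gene overlaps a member could be assigned to either gene or dropped from both. The sources used here do not state whether it did. Had strand been ignored, the antisense genes' own counts would not show how many such reads there were. As deposited, AL662797.2 overlaps IER3 with 0.0345% as many counts, AC011446.2 overlaps IER2 with 0.0651%, and AL158151.1 and AL158151.3 overlap IER5L with 0.435% and 0.0948%. No gene of the table overlaps IER5.

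Other immediate early genes moved in both directions. Of 58 tested genes of a list without IER members, 15 rose, 6 fell and 37 were not called, and the median log2 fold change was 0.08 against 0.00 over all tested genes. FOS, which encodes an AP-1 subunit, rose to 278 ± 22.7 CPM in ADAR1 p110 libraries, against 109 ± 4.43 CPM in GFP libraries (edgeR adjusted p = 4.18e-07, log2 fold change 1.35, SE 0.065). ID1, an inhibitor of helix-loop-helix factors, rose to 138 ± 14.6 CPM in ADAR1 p110 libraries, against 83.9 ± 5.50 CPM in GFP libraries (0.72, SE 0.079, edgeR adjusted p = 0.000428). TNFAIP3, the ubiquitin-editing brake A20 and a target of NF-kappaB, fell to 10.6 ± 0.707 CPM in ADAR1 p110 libraries, against 41.4 ± 2.002 CPM in GFP libraries (-1.97, SE 0.071, edgeR adjusted p = 4.07e-08). These 3 had the smallest p values of the list, which was chosen with earlier results of these data known. They were called in 15 of 15 fits.

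Genes picked after their values were seen show where the members lie among the others. The log2 fold changes of IER5 and IER2 were near those of KLF4 (0.25), DUSP4 (0.24), PHLDA1 (0.26) and DUSP6 (0.28), which were called, and of GADD45B (0.22), CTGF (0.26) and NR4A2 (0.29), which were not. The call of KLF4 held in 10 of 15 fits. IER5L lay near EGR1 (0.47), ID3 (0.51) and DUSP1 (0.55), which were called, and near ARC (0.49), which was not and stood under 0.5 CPM. Besides TNFAIP3, the genes that fell were HBEGF (-0.50), DUSP5 (-0.41), PLAUR (-0.41), LIF (-0.41) and TRIB1 (-0.30), so that the log2 fold change of IER3 lay between those of TNFAIP3 and HBEGF. The number that rose was 8 without ADAR1 p110 replicate 3, 8 without GFP replicate 1 and 9 without GFP replicate 3, and 24 without the 2 libraries that lay apart. Over all genes the number called higher in those fits was 112, 100, 147 and 1174, against 368 with every library.

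Early targets of NF-kappaB, the group to which IER3 is also assigned, were listed with NF-kappaB subunit genes such as RELA and were lower throughout. Of 30 tested, 28 fell and all 30 log2 fold changes were below 0, with a median log2 fold change of -1.27 and a range of -4.98 to -0.17. The number that fell was 26 to 29 in the other fits. CXCL1 and CXCL8, chemokines that attract neutrophils, fell, with log2 fold changes of -4.10 and -3.56, as did the adhesion molecule gene ICAM1 at -2.40 (edgeR adjusted p = 7.09e-10, 1.44e-09 and 1.44e-09). IER3, at -0.95, was nearer to 0 than the median of this list. CXCL1 has close paralogs, so reads may be split between them unevenly.

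Genes around the known partners of IER5 were called about as rarely as tested genes in general, of which 4.91% were called. Of 27 tested heat shock genes only HSPA6 was called, at 1.09 ± 0.138 CPM in ADAR1 p110 libraries and 0.623 ± 0.0651 CPM in GFP libraries (log2 fold change 0.80, edgeR adjusted p = 0.0485). Removal of any 1 of the 6 libraries ended that call, with adjusted p between 0.074 and 0.171, and HSPA6 has near-identical relatives. The median of the heat shock list was -0.02. Of 24 subunits and regulators of PP2A only ARPP19, a PP2A inhibitor, rose, to 142 ± 9.78 CPM in ADAR1 p110 libraries, against 113 ± 4.67 CPM in GFP libraries (0.34, SE 0.061, edgeR adjusted p = 0.00941). It was not called without GFP replicate 1 or 3, with adjusted p of 0.0681 and 0.06, and the list median was -0.01.

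The ERK-SRF list held 35 tested genes. It took in the ERK kinase cascade and serum response factor with its partners, and also the kinase genes MAPK14, MAPK8 and MAPK9 and CREB1. None was called by edgeR, and the log2 fold changes ran from -0.25 to 0.21 with a median of -0.02. The highest in CPM, not divided by length, was the p38 kinase gene MAPK14, which had 302 ± 5.66 CPM in ADAR1 p110 libraries and 314 ± 2.43 CPM in GFP libraries (edgeR adjusted p = 0.602). At an unadjusted p under 0.05 edgeR gave 6 of these genes, beside 3523 of the 18899 tested genes. DESeq2 called 1 gene of the list as lower and limma-voom none. Without ADAR1 p110 replicate 1 edgeR called 6 of the list lower and 1 higher, beside 1012 lower and 792 higher genes in all. Without the 2 libraries that lay apart it called 7 lower and 1 higher, beside 1420 lower and 1174 higher genes in all.

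**Figure D5:**
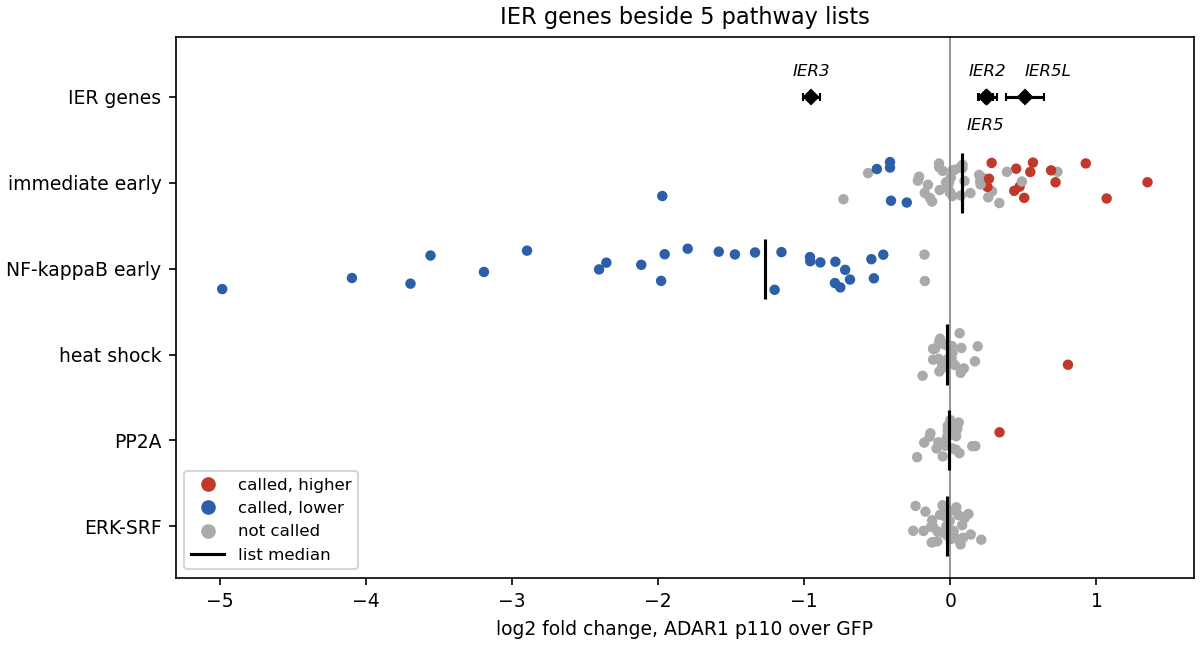
Difference between ADAR1 p110 and GFP libraries as a log2 fold change (horizontal axis) for the 4 members with their SE (top row) and for each tested gene of 5 pathway lists, with called genes in red (higher) or blue (lower), others in grey and list medians as black lines. IER3 lies at -0.95, among the blue points of the NF-kappaB row, and the other 3 members lie at 0.24 to 0.51, where the immediate early row holds both called and uncalled genes.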

How the data were processed

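Total RNA libraries were made with a stranded kit, per the labels' protocols. Reads were aligned with STAR 2.5.2a on hg19, and the authors deposited raw counts per gene from featureCounts 1.5.1, per the submitters' processing notes. For the strand setting and multiply aligned reads, the sources used here give nothing. Gene length, in bases, is a deposited column, per the file headers.

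Groups and replicate numbers came from sample titles. Genes were kept by filterByExpr (minimum count 10), scaled by TMM, and tested in R 4.3.3 by the quasi-likelihood method of edgeR 4.0.16. The model held group alone, with adjustment by Benjamini and Hochberg over 18899 genes. The SE is the log2 fold change divided by the square root of F. Members, lists and alternatives were chosen with earlier results of these data known. Alternatives used DESeq2 1.42.0, limma-voom (limma 3.58.1), other scalings, no low-count filter, a replicate block, removal of ADAR counts and left-out libraries. The tests were also run on simulated counts with known changes, and their recovery is not reported here. No library repeated another (chi-square of 8.68 to 40.1 per degree of freedom between replicates). Named genes were the members, ADAR, up to 3 called genes a list by smallest p (with no call, the gene highest in CPM), the nearest tested genes on each side and overlapping ones, and the 3 genes nearest in pattern. List symbols absent from the table were matched by synonym, and of the markers PECAM1 was not matched.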

Additional observations from a re-analysis of the deposited data

How the results depend on the processing

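Every member kept the direction of its difference in all 15 fits. TPM uses the same counts and lengths, so it could not change the order of the members within a library and is no check of it. Only IER2, with both ADAR1 p110 replicate 1 and GFP replicate 2 left out, moved by more than the spread between replicates, to a log2 fold change of 0.35. That setting also gave 24 immediate early genes higher, heat shock 2 higher and 1 lower, PP2A 2 higher and 2 lower, ERK-SRF 1 higher and 7 lower, and 1174 higher and 1420 lower genes in all.

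No low-count filter gave 742 higher genes in all, 1 lower in PP2A and 2 lower in ERK-SRF. DESeq2 gave 599 higher in all and 1 lower in each of those 2 lists. Library size alone gave 2 higher heat shock genes and 1 lower neighbour, and limma-voom 0 heat shock genes higher. With a replicate block, 175 genes were higher and 333 lower in all, with 0 higher heat shock genes and 0 higher and 1 lower neighbours, and IER5 (0.24) was not called. Over all genes, libraries with the same replicate number showed no clear pairing (correlations of deviations -0.109, -0.030 and 0.043). For IER5L, however, the block gave an SE of 0.077, against 0.128 without it, at a log2 fold change of 0.52.

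Leaving out 1 library at a time gave 100 to 792 higher and 295 to 1012 lower genes in all. In the immediate early list 8 to 20 rose and 5 or 6 fell, in the NF-kappaB list 27 or 28 fell, in heat shock 0 or 1 rose and 0 or 1 fell, in PP2A 0 to 2 rose, in ERK-SRF 0 or 1 rose and 0 to 6 fell, and of neighbours 0 or 1 rose and 1 or 2 fell. The causes of these shifts were not tested.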
